A study of Mus musculus with 14 samples.

Results

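The mouse mitochondrial genome encodes 37 genes: 13 for proteins, 2 for ribosomal RNAs (rRNAs) and 22 for transfer RNAs (tRNAs). They were taken as every gene of the deposited count table whose symbol begins with mt-, which gave 37 of 54532 genes, and all 37 matched the chromosome M genes of GENCODE M21 (GRCm38) by identifier. Of these, 22 passed the filter on low counts: all 13 protein genes, both rRNA genes and 7 tRNA genes. The other 15 tRNA genes were below it, and 6 of them were at 0 in every library.

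The mitochondrial genome is a small circle present in many copies per cell. Its strands are each transcribed as long precursors, and the tRNAs that lie between the other genes are cut out to release the mRNAs and rRNAs. The protein genes encode core subunits of respiratory complexes I, III and IV and of ATP synthase (complex V), while the remaining subunits, and all proteins that copy, transcribe and process mitochondrial DNA and RNA, come from nuclear genes. Heart muscle is dense in mitochondria, so these transcripts make up a large part of its polyadenylated RNA.

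Polyadenylated RNA was sequenced from ventricular tissue of mice collected 1 week after surgery, in 14 libraries. The surgery was transverse aortic constriction (TAC), a narrowing of the aorta that raises the pressure load on the left ventricle, or a sham operation. Wild type mice (WT) gave 2 sham and 6 TAC libraries, and mice lacking Ccl24, the gene of a chemokine (CCL24 KO, here KO), gave 2 sham and 4 TAC libraries. The knockout was not described as limited to a cell type, and no age or sex was used here.

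Library totals ran from 17072262 to 33123052 counts. Ccl24 had 61 and 72 counts in the WT sham libraries and between 56 and 105 in 5 of the 6 WT TAC libraries, against 3 to 8 in the KO libraries. WT TAC replicate 1 had 3 Ccl24 counts, which goes against its label, so it is called the library labelled WT TAC replicate 1. Many of the results resting on it are also given without it. The member count and fold changes for TAC averaged over genotypes are given only with it. The atrial genes Myl7 and Sln stayed at or below 1.49 CPM (counts scaled to a common library size). Myl2, of ventricular muscle, was at 4839 CPM or more in every library. The atrial list as a whole did not stay low. With Myl4, Nppa and Bmp10 included, its sum was 546 to 708 CPM in WT sham and 614 to 5888 in WT TAC. In KO it was 185 to 208 CPM after sham and 609 to 1350 after TAC. Whether atrial tissue was present was not tested. In tissue RNA, fewer cells of a type and less RNA per cell cannot be told apart.

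The identity of the counted sequence matters for these genes, because stretches of mitochondrial DNA have also been copied into the nuclear genome. A search of the GENCODE M21 transcripts found nuclear pseudogenes on chromosome 1 (24612407 to 24615565, GRCm38) that match 5 protein genes at 99% identity or more over at least 90% of their length: mt-Co2, mt-Atp6, mt-Co3, mt-Nd3 and mt-Nd4l. Gm10925 matched mt-Atp6 with 0 mismatches over 678 bases, and Gm28661 matched mt-Co2 with 0 mismatches over 681 bases. The first 60 bases of mt-Nd3 (chromosome M, 9459 to 9806, plus strand) and of its copy Gm28438 show how close they are, with the single mismatch of the 345 aligned bases in capitals. It is T3C, counted from the first base of mt-Nd3, with the base of mt-Nd3 first.
mt-Nd3: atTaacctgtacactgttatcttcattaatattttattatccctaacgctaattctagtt
Gm28438: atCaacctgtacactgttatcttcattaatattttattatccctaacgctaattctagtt
For contrast, mt-Cytb (14145 to 15288, plus strand) and its closest copy, Gm11410 on chromosome 4, were 92.9% identical over 1142 aligned bases. Their first aligned bases hold 3 mismatches, in capitals.
mt-Cytb: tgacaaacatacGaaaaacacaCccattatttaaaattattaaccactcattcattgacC
Gm11410: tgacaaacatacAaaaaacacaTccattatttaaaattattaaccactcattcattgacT
A read that lies wholly in an identical stretch matches both places, and such stretches are long in the first pair and short in the second. How the deposited counts treated reads with several matches is not given in the sources used here, so values of the 5 genes with a full-length copy are uncertain. Here and below, a full-length copy means one at 99% identity or more. For mt-Nd4 and mt-Co1, a near-identical copy covered 63.6% and 31.3% of the gene. Less similar copies ran the length of mt-Co1 (Gm13340, 97.6% identical) and mt-Nd6 (Gm11408, 93.6% identical), as Gm11410 did for mt-Cytb. Among these transcripts, no copy of at least 200 bases at 85% identity was found for mt-Nd1, mt-Atp8 or mt-Rnr1. Nuclear copies outside annotated transcripts were not searched, so these 3 genes may still have one. mt-Atp8 is itself only 204 bases long. It lies between mt-Co2 and mt-Atp6, whose copies Gm28661 and Gm10925 are close together on chromosome 1. Gm10925 matches mt-Atp6 from its first base, so it also matches the 43 bases that mt-Atp8 shares with mt-Atp6. Whether the stretch between these copies matches the rest of mt-Atp8 was not searched, so values of mt-Atp8 are uncertain too. Of mt-Rnr2, 435 aligned bases matched Gm20594 at 88.5% identity.

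Neighbouring genes also share bases. The end of mt-Atp8 (7766 to 7969) is also the start of mt-Atp6 (7927 to 8607), in another reading frame, and the 43 shared bases are in capitals in the last 63 bases of mt-Atp8.
mt-Atp8: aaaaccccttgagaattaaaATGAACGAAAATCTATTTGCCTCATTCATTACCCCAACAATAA
mt-Nd6 (13552 to 14070) is the 1 protein gene on the minus strand and shares 14 bases with mt-Nd5 on the plus strand. Whether counting used strand is not given in the sources used here, so reads of mt-Nd6 and of RNA antisense to it cannot be told apart.

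The 3 tRNA genes with the highest mean count were mt-Tw (tryptophan, 4950 to 5016), mt-Tm (methionine, 3845 to 3913) and mt-Tt (threonine, 15289 to 15355). Their sequences are shown because poly(A) selection and gene-level counting bear on such short genes. Capitals mark bases shared with a neighbouring gene: mt-Tw begins inside the last 2 bases of mt-Nd2, while mt-Tm ends on the base before mt-Nd2 and mt-Tt starts on the base after mt-Cytb.
mt-Tw: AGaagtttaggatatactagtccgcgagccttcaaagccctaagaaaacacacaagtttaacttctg
mt-Tm: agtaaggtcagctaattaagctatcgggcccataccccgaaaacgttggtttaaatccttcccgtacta
mt-Tt: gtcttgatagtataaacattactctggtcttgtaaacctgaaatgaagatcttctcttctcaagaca
The 7 tRNA genes tested had between 3 and 1508 counts in a library, and all 22 together took 0.00314% to 0.0103% of a library. Reads of a mature tRNA and reads of a longer RNA running through it were not told apart.

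Per length, mt-Co1, the catalytic subunit of complex IV, had the highest level of all members at 39160 CPM per kilobase (kb, mean of the 14 libraries). It was followed by mt-Cytb of complex III at 29480, mt-Nd1 at 21950, mt-Nd2 at 14220, mt-Nd4 at 10210 and mt-Nd5 at 5925 CPM per kb, the last 4 all complex I subunits. The rRNA genes mt-Rnr1 and mt-Rnr2, whose products carry short A tails, were at 2760 and 2908 CPM per kb, and mt-Nd6 was at 243 CPM per kb. The 5 genes with a full-length nuclear copy lay between 43.3 and 1935 CPM per kb and mt-Atp8 at 28.3. Of these, mt-Co2 and mt-Co3 encode the partner subunits of mt-Co1 in the same enzyme. Whether the copies bear on these levels was not tested. Within a group of libraries, the coefficients of variation of the same 5 genes were 28.6% to 98.9%. They were 15% to 21.3% for the 7 protein genes without a full-length copy (mt-Atp8, at 56.7%, left out). Such scatter was not particular to the 5 genes. The rRNA genes, without a full-length copy, were at 32.8% and 35.6%, and the 7 tested tRNA genes at 18.4% to 52.0%. The largest coefficient was that of mt-Nd3, whose counts ran from 63 to 4294. The 7 near-identical nuclear copies together held 0.293% to 0.648% of the members' sum in each library. Against its own partner a copy could hold more: Gm28438 exceeded mt-Nd3 in 11 of the 14 libraries and Gm10222 exceeded mt-Nd4l in 7, while the other 5 copies stayed below their partners in every library.

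**Figure D1:**
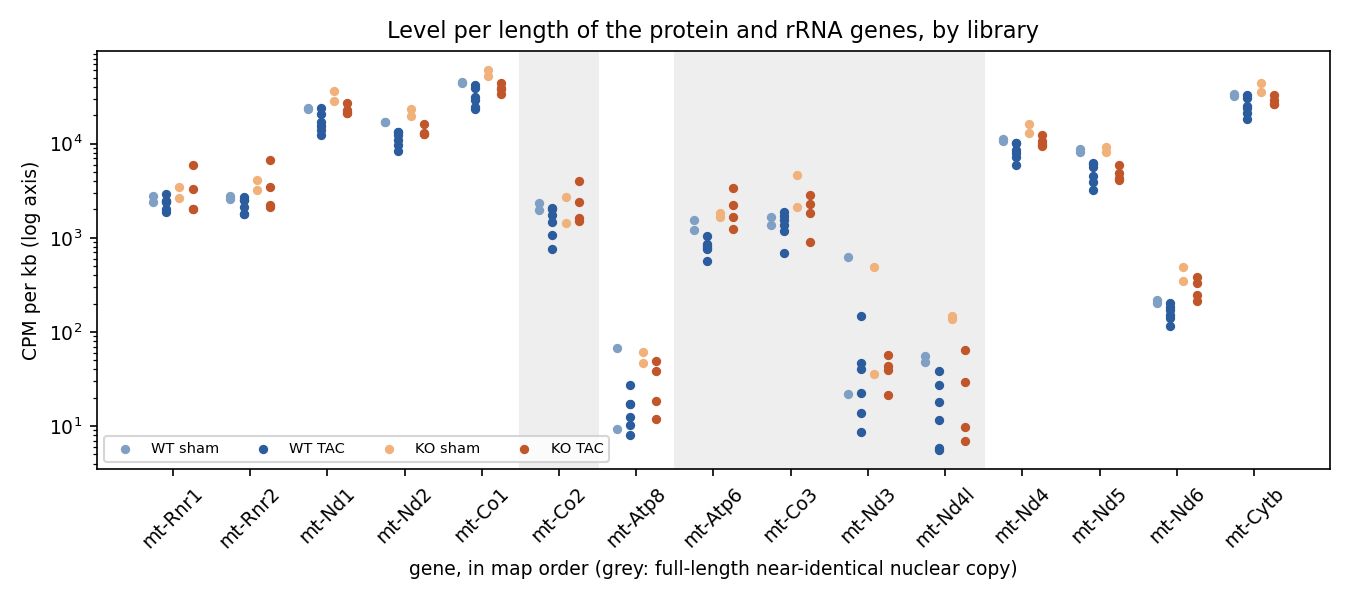
Level of each protein and rRNA gene in CPM per kb of gene length (y axis, log scale), with genes in map order (x axis) and 1 point per library coloured by group; grey bands mark the 5 genes with a full-length near-identical nuclear copy. mt-Co1 and mt-Cytb are highest, and mt-Nd3 and mt-Nd4l spread most between libraries.

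The first comparison asked whether the members' part of all counts differed with surgery or genotype. In WT sham the share was 18.8% and 18.5%, and in WT TAC it ran from 10.1% to 17.1% with a median of 13.9%. In KO sham it was 20.5% and 23.7%, and in KO TAC 14.9%, 15.4%, 19.2% and 16.5%. Every TAC library thus lay below both sham libraries of its genotype, while WT TAC and KO TAC overlapped. The difference between mean shares, TAC less sham, was -4.76 percentage points in WT (13.9% ± 2.77 against 18.6% ± 0.248, SD, n = 6 and 2; exact permutation p = 0.071, two-sided, smallest possible 0.036). In KO it was -5.58 points (16.5% ± 1.90 against 22.1% ± 2.21, SD, n = 4 and 2; exact permutation p = 0.067, the smallest this design allows, so it cannot pass 0.05). Without the library labelled WT TAC replicate 1 the WT difference was -5.39 points (exact permutation p = 0.095). With both genotypes averaged and the libraries permuted within genotype, it was -5.17 points (exact permutation p = 0.0048, two-sided). Without the library labelled WT TAC replicate 1 this was -5.48 points (p = 0.0032, exact permutation).

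KO libraries had larger shares than WT at both surgeries, by 2.63 points after TAC (exact permutation p = 0.15) and 3.45 after sham (p = 0.33, exact, the smallest 2 against 2 allows). Leaving out 1 library at a time, these ran from 1.74 points (without KO TAC replicate 4) to 3.26 after TAC, and from 1.89 (without KO sham replicate 2) to 5.02 (without KO sham replicate 1) after sham. Averaged over surgeries the KO share was 3.04 points higher (exact permutation p = 0.025, two-sided). This passed the threshold in the 14 libraries but not without WT sham replicate 1 (p = 0.063), WT sham replicate 2 (p = 0.075) or KO TAC replicate 4 (p = 0.065, all exact permutation tests). Without the library labelled WT TAC replicate 1 it was 3.36 points (exact permutation p = 0.013), and after TAC alone 3.26 (exact permutation p = 0.079). The effects of surgery and of genotype on the share come from the same libraries, 2 of which per genotype are sham. Nothing in the labels beyond the stated group sizes ties libraries to separate animals, and p-values measure the spread between these libraries.

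Markers of some other cells moved with surgery too. The summed level of 8 fibroblast markers was 2108 and 2423 CPM in WT sham, 3578 to 11900 in WT TAC, 1836 and 1932 in KO sham and 2505 to 4492 in KO TAC. The summed level of 13 cardiomyocyte markers was 85200 and 86660 CPM in WT sham, 66760 to 86640 in WT TAC, 92560 and 95730 in KO sham and 81000 to 93040 in KO TAC. WT TAC replicates 3, 4, 6 and 7 had the 4 smallest member shares, the 4 highest fibroblast sums and the 4 lowest cardiomyocyte sums of all 14 libraries. Over the 8 macrophage markers, the sum was 267 to 308 CPM in the sham libraries and 296 to 620 after TAC. Endothelial markers overlapped, at 909 to 914 CPM in WT sham and 652 to 1115 in WT TAC. In KO they were at 948 to 1160 CPM after sham and 929 to 1170 after TAC. Erythroid markers were at 166 to 192 CPM in WT sham and 174 to 272 in WT TAC. In KO they were at 117 to 253 CPM after sham and 233 to 913 after TAC. The part of these cell markers in the results was not tested.

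**Figure D2:**
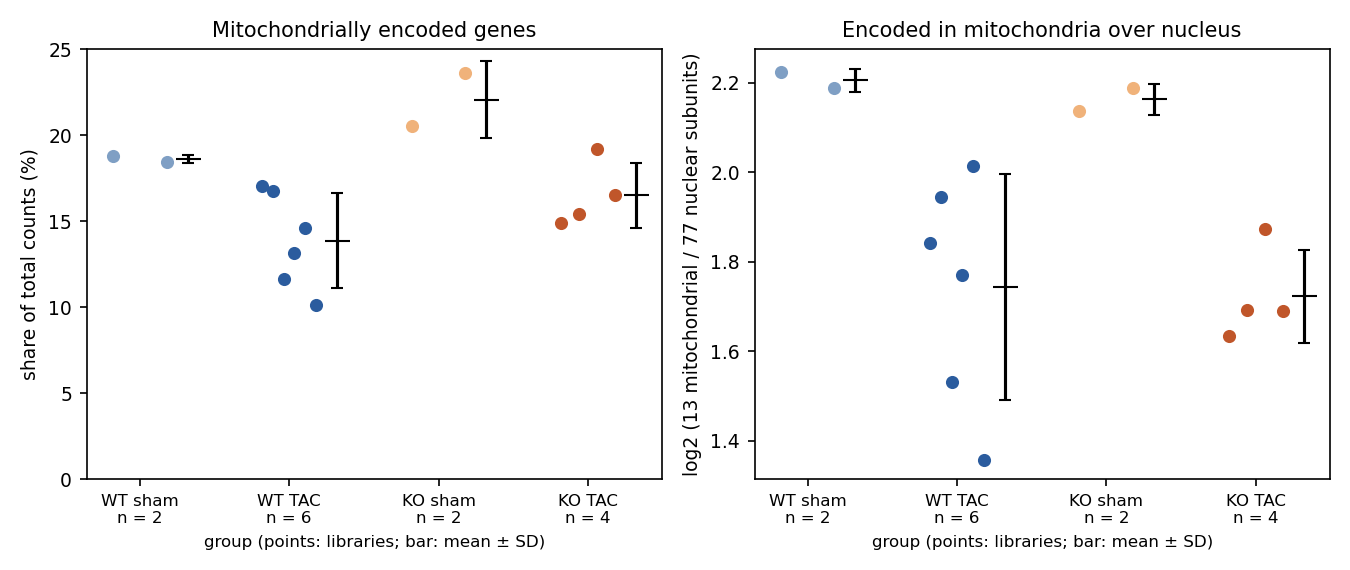
Left, share of total counts taken by the 37 mitochondrially encoded genes (%). Right, log2 of the summed counts of the 13 mitochondrial protein genes over those of 77 nuclear subunit genes, with the inhibitor gene Atpif1 counted among them. Points are libraries in 4 groups and bars the mean ± SD; each TAC library lies below both sham libraries of its genotype in both panels.

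Gene by gene, edgeR's quasi-likelihood test (Benjamini-Hochberg adjustment over 15876 genes, threshold 0.05) was run on the whole table. After TAC, averaged over genotypes, 11 of the 22 tested members fell and 0 rose, where 11.6% of all tested genes fell. The members' median log2 fold change was -0.50 against -0.00 over all genes tested, and all 22 estimates were negative. Those that fell were 8 protein genes and 3 tRNA genes. mt-Nd5, mt-Nd2, mt-Tw, mt-Tm and mt-Ti kept the call in all 19 other settings, with those leaving out 1 library. The call was lost in 5 settings for mt-Co1, 6 for mt-Nd4l, 8 for mt-Nd1, 8 for mt-Nd4, 10 for mt-Cytb and 12 for mt-Nd3. Among the protein genes without a full-length copy that passed, mt-Nd5 had the most negative estimate. The count of 11 was 7 without KO TAC replicate 2 or 5, 6 without KO sham replicate 2, WT sham replicate 1 or WT sham replicate 2, and 5 without KO sham replicate 1.

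The complex I genes mt-Nd5 and mt-Nd2 had the smallest adjusted p of the protein genes. mt-Nd5 was at 14870 and 15830 CPM in WT sham, 5809 to 11400 (median 9197) in WT TAC, 14850 and 16810 in KO sham and 7542 to 10830 in KO TAC. All 10 TAC libraries were below all 4 sham libraries. Its log2 fold change, TAC against sham, was -0.81 ± 0.16 (SE; edgeR adjusted p = 0.00236). mt-Nd2 was at 17630 and 17660 CPM in WT sham, 8636 to 13870 (median 12020) in WT TAC, 20560 and 24290 in KO sham and 13070 to 16630 in KO TAC, again without overlap. Its log2 fold change was -0.63 ± 0.13 (edgeR adjusted p = 0.00293).

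Among the other complex I genes without a full-length copy, mt-Nd1 had a log2 fold change of -0.48 ± 0.15 (edgeR adjusted p = 0.0325) and mt-Nd4 one of -0.42 ± 0.14 (edgeR adjusted p = 0.0326). mt-Nd6 had -0.45 ± 0.16 and did not pass (edgeR adjusted p = 0.0569). mt-Co1 of complex IV fell by 0.53 on the log2 scale (SE 0.15, edgeR adjusted p = 0.0188), from 68300 and 70090 CPM in WT sham to 36100 to 65180 in WT TAC, and from 81620 and 94070 in KO sham to 52340 to 67530 in KO TAC. mt-Cytb of complex III fell by 0.42 (SE 0.14, edgeR adjusted p = 0.0405). WT TAC and WT sham overlapped in mt-Cytb, since the library labelled WT TAC replicate 1 was at 37454 CPM and the lower sham library at 37102.

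Among the genes with a full-length nuclear copy, mt-Nd4l (log2 fold change -1.95 ± 0.57) and mt-Nd3 (-2.75 ± 0.86) passed the test with edgeR adjusted p of 0.0311 and 0.0408. The sham libraries of 1 genotype differed widely in mt-Nd3, at 7.59 and 218 CPM in WT and at 172 and 12.5 in KO. They were closer in mt-Nd4l, at 14.1 to 16.7 CPM in WT sham and 40.8 to 44.1 in KO sham. After TAC mt-Nd4l was at 1.65 to 11.4 CPM in WT and 2.07 to 19.3 in KO. The rest, mt-Co2, mt-Co3 and mt-Atp6, had log2 fold changes of -0.15, -0.45 and -0.25 and did not pass, nor did mt-Atp8 at -1.10 ± 0.46.

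The tRNA genes mt-Tw, mt-Tm and mt-Ti (isoleucine) fell with log2 fold changes of -0.92 ± 0.16, -1.10 ± 0.20 and -0.71 ± 0.16 (edgeR adjusted p = 0.00151, 0.00211 and 0.00506). mt-Tw went from 62.8 and 55.3 CPM in WT sham to 21.8 to 40.1 in WT TAC, and from 61.6 and 73.8 in KO sham to 30.4 to 45.3 in KO TAC, without overlap. mt-Tw and mt-Tm flank mt-Nd2, as described above. mt-Ti (3706 to 3774) shares 2 bases with mt-Nd1 (2751 to 3707) and 3 with mt-Tq on the minus strand. The other 4 tested tRNA genes, mt-Tl1, mt-Tq, mt-Tt and mt-Tp, did not pass.

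The rRNA genes did not pass the test. mt-Rnr1 had a log2 fold change of -0.01 ± 0.24 and mt-Rnr2 one of -0.13 ± 0.26 (edgeR adjusted p = 0.981 and 0.75), which leaves room for falls of the size seen in mt-Nd1. Their level varied with single libraries: mt-Rnr2 was at 10722 CPM in KO TAC replicate 4, 5485 in replicate 5 and 3321 and 3526 in the other KO TAC libraries.

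**Figure D3:**
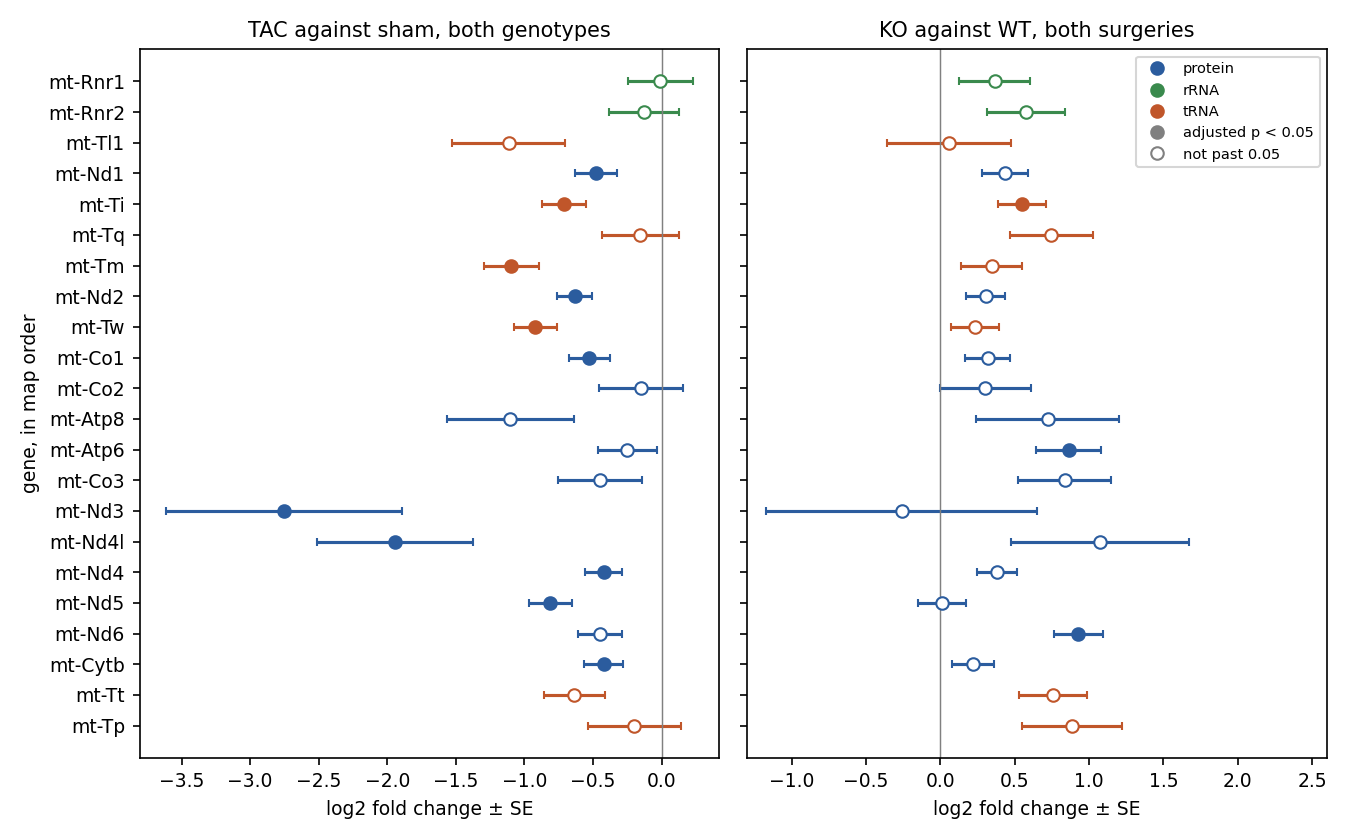
Log2 fold change ± SE (x axis) of the 22 tested members in map order (y axis), for TAC against sham (left) and KO against WT (right), each averaged over the other factor; filled points passed an adjusted p of 0.05. On the left all estimates are negative and 11 pass; on the right 21 are positive and 3 pass.

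Within each genotype fewer members passed. In WT, TAC lowered 5 of 22, with 5.8% of all tested genes lower: mt-Ti, mt-Tw, mt-Tm, mt-Nd5 and mt-Nd2, with log2 fold changes of -1.08, -0.96, -1.13, -0.78 and -0.59 (SE 0.18 to 0.27; edgeR adjusted p from 0.0111 to 0.0398). This count was 7 without the library labelled WT TAC replicate 1, 3 without WT TAC replicate 4 and 0 without either WT sham library. In KO, TAC lowered 1 of 22, with 1.73% of all tested genes lower. It was mt-Tw, with a log2 fold change of -0.88 ± 0.23 (edgeR adjusted p = 0.0479). mt-Nd5, mt-Nd2 and mt-Tm had -0.84, -0.67 and -1.06 there, with edgeR adjusted p of 0.0505, 0.0543 and 0.0581. The KO count was 0 with the scaling computed on nuclear genes, and it was 0 without KO TAC replicate 1, 2 or 5, without either KO sham library, without either WT sham library and without WT TAC replicate 4 or 6. It was 3 without the library labelled WT TAC replicate 1, and 4 without WT TAC replicate 2 or 7 or KO TAC replicate 4.

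The difference between the TAC effects of the genotypes, tested as an interaction, passed for 0 of 22 members and for 0.0% of all tested genes. At an unadjusted p under 0.05 the edgeR test had 2 members, mt-Atp6 (1.07 on the log2 scale) and mt-Ti (0.73), and DESeq2 also called 0. The fall of mt-Ti in WT and its -0.35 ± 0.23 in KO are therefore not shown to differ.

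Levels in KO were higher than in WT for most members, and 3 passed the test. Averaged over surgeries, mt-Nd6, mt-Atp6 and mt-Ti rose, where 3.73% of all tested genes were higher, and 0 fell. The members' median log2 fold change was 0.41 against 0.00 over all genes tested. This count was 6 without the library labelled WT TAC replicate 1, 1 without KO sham replicate 1, KO TAC replicate 4 or WT sham replicate 2, and 0 without KO sham replicate 2 or WT sham replicate 1.

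mt-Nd6, the complex I subunit on the minus strand, was at 107 and 113 CPM in WT sham, 60.7 to 105 (median 83.3) in WT TAC, 179 and 253 in KO sham and 129, 111, 201 and 173 in KO TAC. All KO TAC libraries were above all WT TAC libraries, and both KO sham libraries above both WT sham libraries. Its log2 fold change, KO against WT, was 0.93 ± 0.17 (edgeR adjusted p = 0.00728), a 1.90-fold higher level. Without the library labelled WT TAC replicate 1 it was 0.95 (edgeR adjusted p = 0.00427). It lost the call without WT sham replicate 1 (edgeR adjusted p = 0.0538) or KO sham replicate 2 (edgeR adjusted p = 0.0652).

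mt-Atp6, a subunit of the proton channel of ATP synthase, rose by 0.86 ± 0.22 (edgeR adjusted p = 0.0289) and mt-Ti by 0.55 ± 0.16 (edgeR adjusted p = 0.0439). Across other settings, with those leaving out 1 library, mt-Atp6 kept this call in 12 and lost it in 7. The call of mt-Ti was kept in 8 and lost in 11. After TAC alone, with 3.71% of all tested genes higher, the same 3 members passed: mt-Atp6 with 1.40 ± 0.23, mt-Ti with 0.92 ± 0.18 and mt-Nd6 with 0.88 ± 0.18 (edgeR adjusted p = 0.00508, 0.00774 and 0.0115). mt-Atp6 was at 382 to 720 CPM in WT TAC and at 834 to 2303 in KO TAC, without overlap, and its nuclear copy Gm10925 was higher as well, with a log2 fold change of 0.87 ± 0.18 (edgeR adjusted p = 0.0131). This count after TAC was 5 without the library labelled WT TAC replicate 1, where mt-Atp6, mt-Ti and mt-Nd6 had 1.39, 0.92 and 0.92 (edgeR adjusted p = 0.00474, 0.00445 and 0.0069), and 2 without KO TAC replicate 5, where mt-Nd6 did not pass. After sham 0 of 22 passed, where 0.126% of all tested genes were called in either direction. The 3 members with the smallest p there were mt-Nd6, mt-Co3 and mt-Tp at 0.98, 1.17 and 1.19 on the log2 scale (edgeR adjusted p = 0.252, 0.434 and 0.445), and 2 members had an unadjusted p under 0.05. DESeq2 called 1 there, and edgeR on the sham libraries alone called 3.

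The respiratory complexes are built from subunits of both genomes, so the members were set beside 77 nuclear genes of complexes I, III, IV and V. They are called nuclear subunits here, although the complex V list also holds Atpif1, which is not a subunit. After TAC, averaged over genotypes, 2 of the 77 (2.6%) rose and 1 (1.3%) fell, where 2009 of 15876 tested genes rose and 1839 fell. The median log2 fold change of the 77 was -0.02. Those that rose were Cox6a1 of complex IV (0.35 ± 0.09) and Atpif1, an inhibitor of ATP synthase (0.23 ± 0.08), and the one that fell was Ndufs1 of complex I (-0.41 ± 0.10; edgeR adjusted p = 0.0098, 0.0454 and 0.0103), and 0 of the 77 were called without KO sham replicate 1. The ratio of the 13 mitochondrial to the 77 nuclear genes, as summed counts, was 4.67 and 4.56 in WT sham, 2.56 to 4.04 in WT TAC, 4.40 and 4.56 in KO sham and 3.11, 3.23, 3.67 and 3.23 in KO TAC. All TAC libraries were below all sham libraries. On the log2 scale the ratio was lower after TAC by -0.45 (exact permutation p = 0.0024, two-sided, the smallest the design allows). Without the library labelled WT TAC replicate 1 it was -0.46 (exact permutation p = 0.0032).

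Between genotypes, beside the 3 members that rose in KO, 57 of the 77 nuclear subunits rose and 0 fell, where 3.73% of all tested genes were higher. The median log2 fold change of the 77 was 0.38, and the calls covered every complex: 27 of 36 for complex I, 5 of 9 for III, 13 of 14 for IV and 12 of 18 for V. This count rested on single libraries: it was 0 without WT sham replicate 1, WT sham replicate 2 or KO sham replicate 2, 35 without WT TAC replicate 3 or 4, 27 without KO TAC replicate 4 and 28 without KO TAC replicate 5. It was 68 without the library labelled WT TAC replicate 1. Ndufb6 of complex I, Uqcrfs1 of complex III, Cox5a of complex IV and Atp5g3 of complex V had log2 fold changes of 0.43, 0.48, 0.44 and 0.58. The ratio of mitochondrial to nuclear subunits differed by -0.03 between KO and WT (exact permutation p = 0.65).

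Of 22 nuclear genes for maintenance and transcription of mitochondrial DNA, 11 fell and 0 rose after TAC averaged over genotypes, with a median of -0.22, where 11.6% of all tested genes fell. The 11 were 7 without WT sham replicate 1, 5 without WT sham replicate 2 or KO sham replicate 1, and 12 without the library labelled WT TAC replicate 1. The 4 with the smallest p were the coactivator Ppargc1a (-0.86 ± 0.11), the transcription factor Gabpa (-0.32 ± 0.06), the nuclease Mgme1 (-0.35 ± 0.07) and the helicase Twnk (-0.40 ± 0.09; edgeR adjusted p = 0.000271 to 0.00403). In KO against WT, 3 of them rose and 1 fell, but 0 were called without either WT sham library or KO sham replicate 2, and leaving out 1 library gave 0 to 5 that rose. The 3 and the 1 were 13.6% and 4.55% of the list, where 3.73% of all tested genes were higher in KO and 828 of 15876 lower. Of 27 genes for processing, stability and decay of mitochondrial RNA, 4 fell and 1 rose after TAC. Those that fell were 14.8% of the list, near the 11.6% of all tested genes. The 1 that rose was 3.7% of the list, where 2009 of 15876 tested genes rose. Leaving out 1 library gave 1 to 9 that fell, the 9 without the library labelled WT TAC replicate 1 and the 1 without either WT sham library or KO sham replicate 1. With all 14 libraries, those that fell included Lrpprc, which stabilises mitochondrial mRNAs, at -0.40 ± 0.11, and Fastkd1 at -0.40 ± 0.09, while Rexo2, an exonuclease for short RNAs, rose by 0.31 ± 0.10 (edgeR adjusted p = 0.0169, 0.00436 and 0.0294). In KO against WT 5 of the 27 rose and 0 fell, and 0 to 7 rose when 1 library was left out, with 0 without either WT sham library or KO sham replicate 2. The 5 were 18.5% of the list, against 3.73% of all tested genes. Among the 5 was Supv3l1, a helicase of RNA decay, at 0.34 ± 0.08 (edgeR adjusted p = 0.0194).

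The members were then compared with each other, as log2 of each protein or rRNA gene over the summed counts of the other protein genes, which does not depend on library scaling. Of 30 exact permutation tests (15 genes, 2 factors), 8 passed after Benjamini-Hochberg adjustment over the 30, but 4 without WT sham replicate 2 and 5 without KO sham replicate 1. Relative to the other protein genes, mt-Nd5 was lower after TAC by -0.33 (adjusted exact permutation p = 0.0143) and lower in KO by -0.31 (p = 0.0119, exact, adjusted). Its share of protein gene counts was 8.62% and 8.29% in WT sham, 6.18% to 7.80% in WT TAC, 7.19% and 6.74% in KO sham and 5.97%, 5.58%, 5.94% and 4.92% in KO TAC. All KO TAC libraries were below all others. In level, mt-Nd5 did not pass for genotype, at 0.01 ± 0.16 on the log2 scale (edgeR adjusted p = 0.974). The TAC difference lost its call without WT sham replicate 2 (adjusted exact permutation p = 0.057).

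mt-Nd6 was higher relative to the other protein genes in KO by 0.60 (adjusted exact permutation p = 0.0119), and by 0.58 without the library labelled WT TAC replicate 1. Its share was 0.0580% and 0.0632% in WT sham, 0.0569% to 0.0833% in WT TAC, 0.0868% and 0.101% in KO sham and 0.0860%, 0.0782%, 0.110% and 0.113% in KO TAC. WT TAC replicate 7, at 0.0833%, was the 1 WT library above a KO library. mt-Nd1 was higher in KO by 0.15 and mt-Cytb lower by -0.11 (p = 0.0119 for each, exact, adjusted). After TAC mt-Cytb was higher by 0.12, mt-Nd2 lower by -0.13 and mt-Nd4l lower by -1.88 relative to the others (adjusted exact permutation p = 0.0238, 0.0446 and 0.0408). The calls of mt-Nd2 and mt-Nd4l were each lost in 13 of 16 other settings, and that of mt-Cytb in 4. The call of mt-Cytb after TAC was lost without WT sham replicate 1, WT sham replicate 2 or KO sham replicate 1, at adjusted p of 0.082, 0.14 and 0.11 (exact permutation). Without the library labelled WT TAC replicate 1, 6 of the 8 remained, and mt-Nd2 and mt-Nd4l did not pass (0.054 and 0.063).

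**Figure D4:**
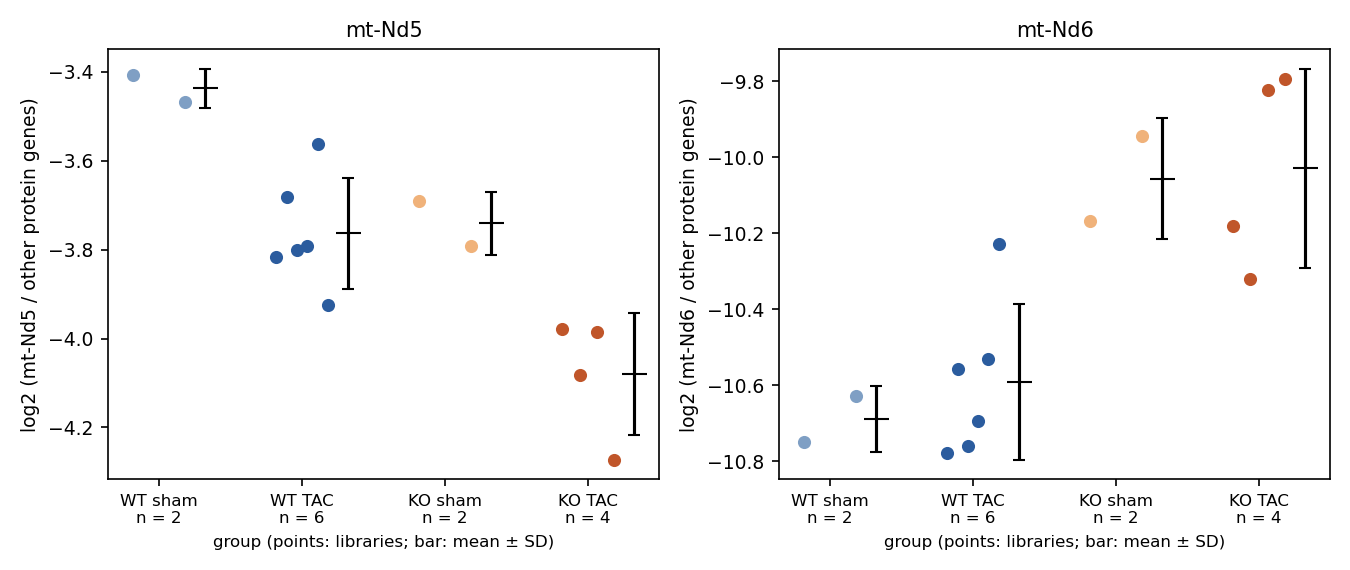
Log2 of mt-Nd5 (left) and mt-Nd6 (right) over the summed counts of the other mitochondrial protein genes (y axis), by group; points are libraries and bars the mean ± SD. mt-Nd5 is lowest in the KO TAC libraries, and mt-Nd6 is higher in the KO groups.

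The rRNA genes relative to the protein genes did not pass the test for surgery or genotype (adjusted exact permutation p from 0.155 to 0.941). Their summed counts were 3.46% to 4.86% of the protein gene counts in 11 libraries, and 5.62% in KO TAC replicate 5, 6.75% in WT TAC replicate 7 and 8.96% in KO TAC replicate 4. The same 3 libraries had the highest Gm42418, a nuclear gene that overlaps rRNA sequence, at 11450, 13780 and 24970 CPM, against 1329 to 8833 in the others. They also had the highest Lars2, at 4081, 4948 and 7237 CPM against 1843 to 3570. Both genes were chosen after their values were seen, and the part of rRNA carried through poly(A) selection was not tested.

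**Figure D5:**
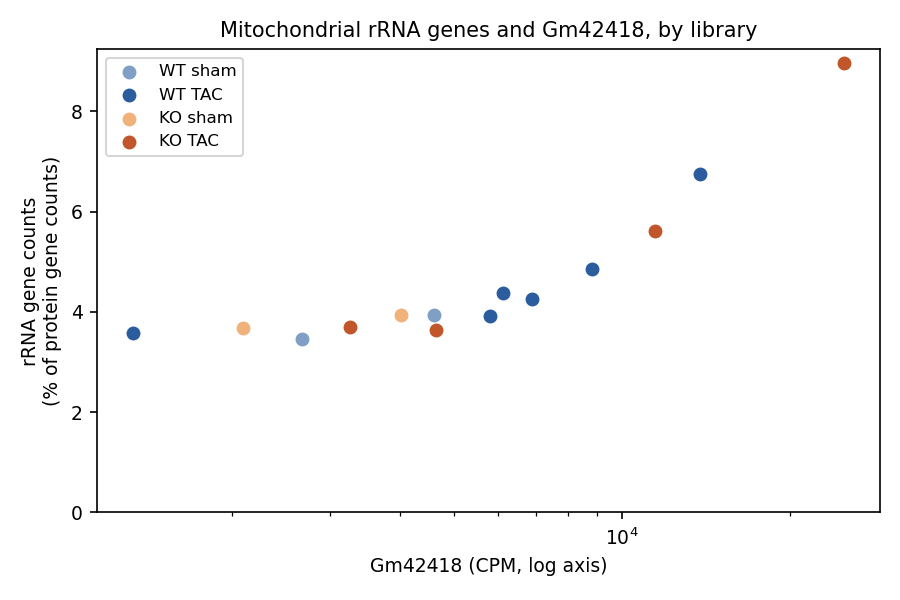
Counts of the 2 mitochondrial rRNA genes as a percentage of the mitochondrial protein gene counts (y axis) against Gm42418 in CPM (x axis, log scale), 1 point per library coloured by group. The 3 libraries at 5.62% or more are those with Gm42418 at 11450 CPM or more.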

How the data were processed

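The deposited values were whole-number read counts per gene from the authors, 54532 genes in 14 libraries, aligned to GRCm38 with HISAT2 2.1.0 and counted with featureCounts, per the submitters' processing notes. For strand and multiple-match settings the sources used here give no value. Annotation came from GENCODE M21 (54409 identifiers matched). Counts went unchanged into edgeR 4.0.16 (R 4.3.3): filterByExpr kept 15876 genes, TMM scaling, 1 mean per group, all 4 groups in 1 quasi-likelihood fit, Benjamini-Hochberg threshold 0.05. CPM are TMM-scaled. Shares, ratios and composition (genes with at least 10 counts in every library) used exact two-sided permutation tests in Python 3.11.15, permuted within the other factor for averaged comparisons. Copies were sought with BLAST 2.17.0 among the GENCODE M21 transcripts only. Both test codes were tested on simulated data. No 2 libraries of a group were near-identical (chi-square per degree of freedom 4.55 or more).

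Named were all members past the threshold (up to 15) per comparison, otherwise the 3 with the smallest p, the 3 most abundant tRNA genes, and up to 4 genes per nuclear list by smallest p. The members and lists were chosen with earlier results of these data known. Alternatives were DESeq2 1.42.0, other scalings, no filter, compared groups alone, a replicate block, other numerators, denominators and references, and leaving out each library. Handling of the near-identical copies, and nuclear list counts without each library, were added after seeing the data.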

Additional observations from a re-analysis of the deposited data

Results flagged for a closer look

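In groups of 4 or more libraries, each highest or lowest library was compared with its nearest neighbour by Dixon's criterion, over 54 groups of values. Chance alone marks about 1 group in 20, and 4 values were marked. In KO TAC replicate 4, mt-Nd2 was at 16631 CPM against 13074 to 13329 in the other 3 libraries, and mt-Tm was at 10.9 CPM against 7.03 to 7.47. In KO TAC replicate 5, mt-Ts1, a serine tRNA gene on the minus strand that shares 3 bases with the end of mt-Co1, had 63 counts of the 84 it had in all 14 libraries. In WT TAC replicate 4, mt-Nd3 was at 51.7 CPM, against at most 16.4 in the other WT TAC libraries.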

How the results depend on the processing

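Leaving out 1 library at a time, members called ranged from 0 to 7 for TAC in WT, 0 to 4 for TAC in KO, 2 to 5 for KO against WT after TAC, 5 to 12 for TAC averaged and 0 to 6 for KO averaged, and stayed at 0 for sham and the interaction. Composition calls ranged from 4 to 8, and the averaged KO difference in share from 2.26 to 3.82 points. Without the low count filter, TAC in KO gave 2 and KO averaged 1. DESeq2 gave 4 for TAC in KO, 1 for sham and 6 for KO averaged. Compared groups alone gave 3 for TAC in WT, 5 for TAC in KO and 3 for sham. Scaling on nuclear genes gave 0 for TAC in KO. With the replicate block, counts were 0 for TAC in WT, 0 for KO against WT after TAC, 5 for TAC averaged and 1 for KO averaged, and same-numbered libraries did not deviate together (13 pairs, r from -0.215 to 0.06), so the numbers were not used as pairs. The KO difference in mitochondrial to nuclear ratio turned to 0.136 as a difference of mean log2 CPM. Among refits of single members' fold changes, 453 kept call and direction, 107 lost the call, 2 gained it (mt-Nd6 after sham) and 0 changed sign. Every alternative numerator or denominator of the share kept direction and call. Sham groups of 2 libraries limit every TAC comparison.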
